A study of Mus musculus with 9 samples.

Results

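The genes described here are 34 imprinted genes of the mouse, listed by name and grouped by the imprinted cluster they lie in. Of these 34 genes, 32 had a row in a table of 38293 genes, and the other 2, Kcnq1ot1 and Snrpn, were not analysed here. RNA-seq was carried out on E14, an established embryonic stem cell line of strain 129/Ola, in 3 culture states with 3 libraries each, labelled as biological replicates. mESC-2i were kept in serum-free N2B27 medium with 10 ng/mL of leukaemia inhibitory factor (LIF), 1 μM of the MEK inhibitor PD0325901 and 3 μM of the GSK3 inhibitor CHIR99021, and are labelled Naive. mESC-ser were grown on gelatin with 15% foetal bovine serum and 10 ng/mL LIF, with no kinase inhibitor listed, and are labelled Primed. EpiLC (epiblast-like cells) were derived from the mESC-2i state on human plasma fibronectin in N2B27 with 20 ng/mL activin A, 12 ng/mL bFGF and 1% KSR. All groups share 1 cell line and hence 1 genotype, and no source used here says what separated the replicates of a group, so p-values measure the spread between these libraries, which may be technical.

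Imprinted genes are expressed mainly from the copy inherited from 1 parent. Most are held in clusters controlled by a stretch of DNA that carries methylation on the maternal or the paternal copy, laid down in the germ line and then maintained in the embryo while most other methylation is erased and rewritten. Many of the genes control growth of the embryo and placenta, and pluripotent stem cells are known for unstable imprints, in particular in medium with MEK and GSK3 inhibitors. The table gives 1 count per gene for both parental copies together, so it holds no measure of which copy was read. In these bulk samples, fewer cells expressing a gene and less RNA per cell cannot be told apart.

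The libraries held 7187576 to 16829549 counts, and the 32 imprinted genes took up between 0.153% and 0.405% of them. The pluripotency genes (8 of 8 detected in every library) summed to 4067 to 4416 CPM in mESC-2i, 2839 to 2864 in mESC-ser and 1132 to 1198 in EpiLC (CPM are counts divided by the library total and scaled to 1e6 counts), while 4 formative genes summed to 71.8 to 80.3, 609 to 711 and 1620.4 to 1709 CPM. Replicates differed by more than counting noise in every group (chi-square per degree of freedom 1.61 to 28.3). The mESC-2i library of replicate 3 stood apart. It held 578 CPM of Malat1 and 401 CPM of Neat1, which are long nuclear non-coding RNAs, against 121 to 155 CPM and 95.9 to 119 CPM in the other 2 mESC-2i libraries. Both genes were picked after the libraries had been seen. For the imprinted genes, results that rest on this library are given with and without it. Changes of single genes outside that list, such as the regulators of imprinting, were fitted with it only. In the values that follow, 2i stands for mESC-2i and serum for mESC-ser. Levels are CPM scaled by the trimmed mean of M-values (TMM) over all 9 libraries, in the order of replicates 1, 2 and 3.

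To ask how imprinted genes differ between the culture states, each pair of groups was fitted across all genes with edgeR, and a gene was called at an adjusted p under 0.05 with an absolute log2 fold change over 0.5. Between serum and 2i, 30 imprinted genes passed the filter on low counts, of which 13 were higher and 10 lower in serum. In that comparison 56.2% of all 15728 tested genes were called, 25.9% higher and 30.3% lower. EpiLC had 10 of 29 higher and 13 lower than 2i, beside 69.8% of all tested genes called, which is 32.0% of the tested genes called higher and 37.8% called lower. Set against serum, EpiLC had 7 of 30 higher and 17 lower, on a background of 73.3% of genes called, 35.5% higher and 37.8% lower. The libraries of the groups compared did not overlap in CPM for 25, 25 and 27 of the tested members, where 70.7%, 81.8% and 85.7% of all tested genes did not. Most tested genes of the table were thus called between any 2 of these states, and the counts of members are read against that. The median log2 fold change of the members was 0.26, -0.29 and -0.91 in these comparisons, beside -0.04, -0.11 and -0.07 over all tested genes. Usp29 and Zim1, members with a group at 3 counts or fewer in every library, lay on the same side of these medians by their count ratio or bound. Using those values could therefore not move a median. Between EpiLC and 2i no such member was tested.

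Among the 32 measured genes, 16 had their highest mean level in mESC-ser, 8 in mESC-2i and 8 in EpiLC. These are ranks of means and include genes whose highest groups were not called apart. Igf2, Igf2r and Cdkn1c are such genes with the top mean in mESC-ser, and Meg3 is one in EpiLC. The most frequent course was higher in serum than in 2i and lower in EpiLC than in serum, which 11 genes followed (Grb10, H19, Magel2, Mest, Peg10, Peg3, Slc38a4, Ube3a, Usp29, Zdbf2 and Zim1). A single gene, Dlk1, was higher at both steps, and 2, Mkrn3 and Plagl1, were lower at both. The 3 comparisons share their control groups pairwise, so these courses are descriptions. The shares of all tested genes with each highest group and with each course were not counted. After a correction for gene length and GC content, Peg3 (-0.31) and Ube3a (-0.25) were no longer called lower in EpiLC than in serum. Mkrn3 (-0.46) was then no longer called lower in serum than in 2i.

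**Figure D1:**
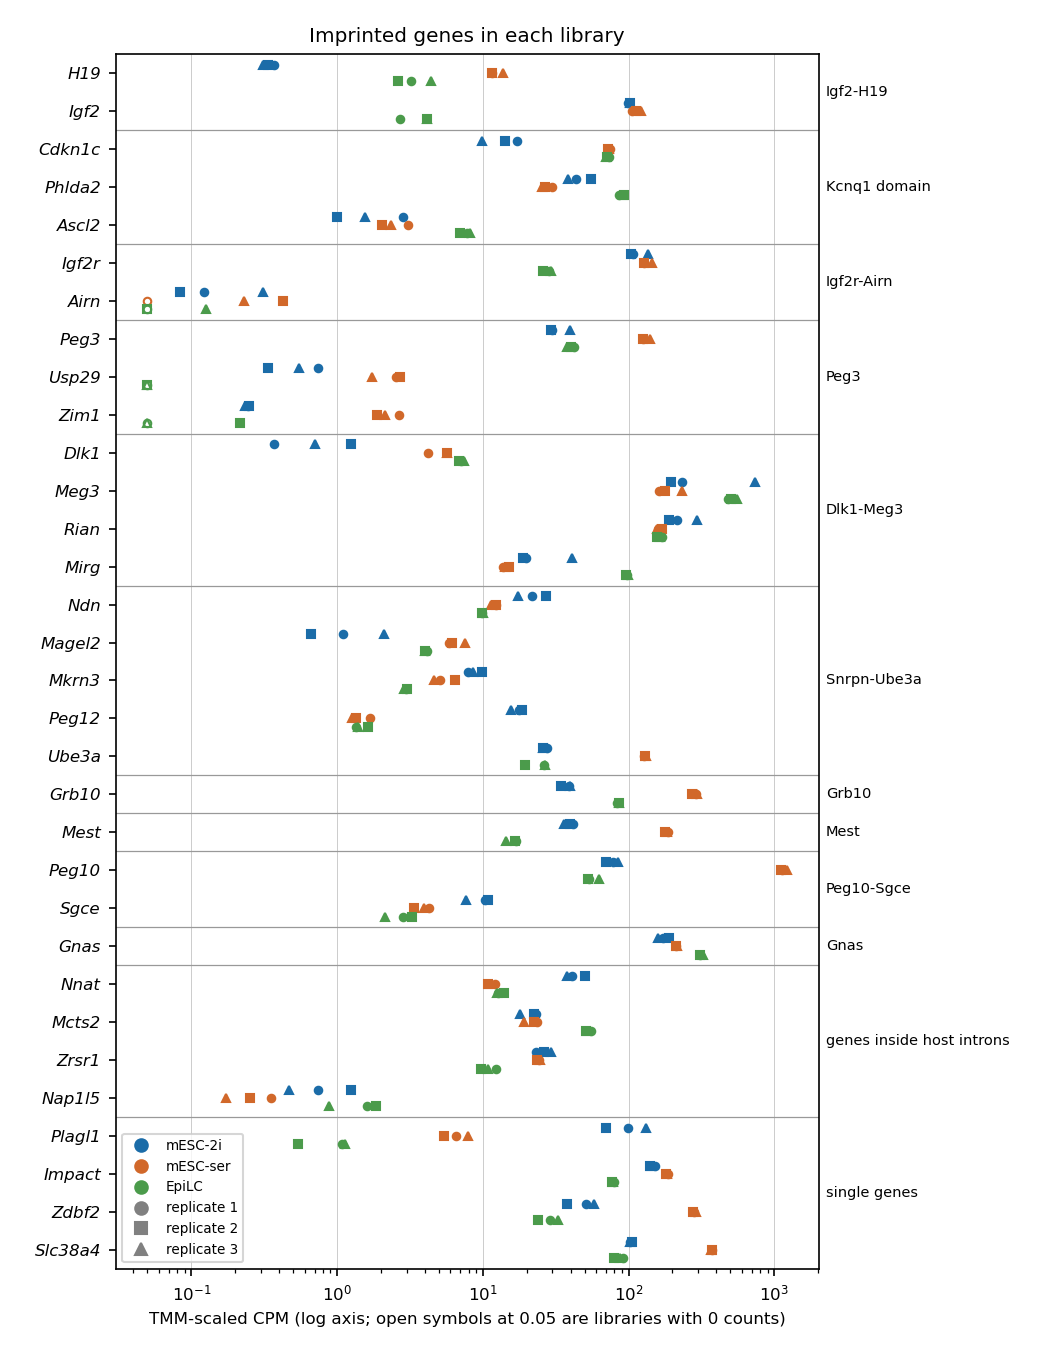
TMM-scaled CPM of the 32 imprinted genes in each of the 9 libraries on a log axis, with culture states by colour and replicates by symbol, and genes ordered by cluster. Peg10 reaches 1107 CPM or more in the 3 mESC-ser libraries, Igf2 lies under 5 CPM in the EpiLC libraries, and Plagl1 falls from mESC-2i through mESC-ser to EpiLC.

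**Figure D2:**
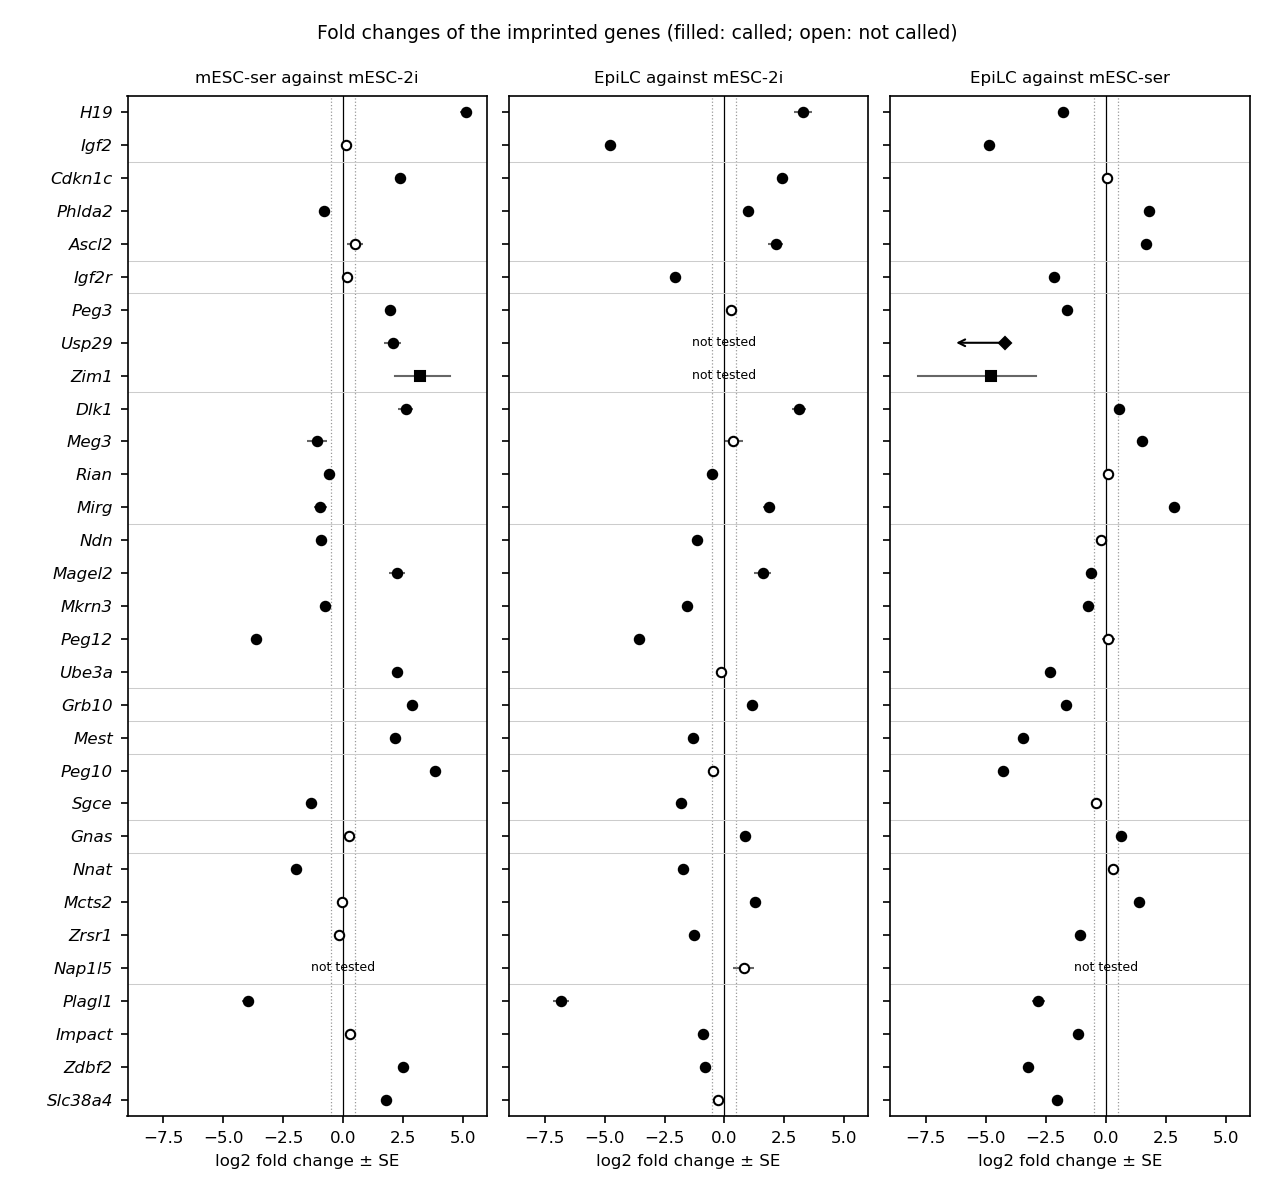
Log2 fold change with its SE for each tested imprinted gene in the 3 comparisons, with filled symbols for called genes. Squares give the ratio of summed counts with its 95% counting interval where a group held 3 counts or fewer in every library, and the diamond with an arrow marks a lower bound against a group at 0 counts.

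What the imprinted genes share beyond expression was looked at in their RefSeq promoter windows (GRCm38.p6, 250 bases before to 50 after each start site), which were given for 27 of the 32 genes. Airn, Rian and Slc38a4 had at most 5 CpG in any window, whereas Grb10 had 45, Gnas 40 and Zdbf2 38. The median of the highest CpG count per gene was 17 for the imprinted genes and 8 for all 27025 genes. The 6 letters TGCCGC, which the imprint-protecting factor ZFP57 binds when methylated, were searched on both strands (TGCCGC and GCGGCA). They occurred in a window of 10 of the 27 genes (37.0%), beside 13.1% of all genes and 24.4% of the 12388 genes with at least 10 CpG. The windows of 6 of these genes are shown as examples of genes whose levels are described below, with the letters TGCCGC or GCGGCA in capitals.
Zdbf2, chr1:63200108-63200407, plus strand: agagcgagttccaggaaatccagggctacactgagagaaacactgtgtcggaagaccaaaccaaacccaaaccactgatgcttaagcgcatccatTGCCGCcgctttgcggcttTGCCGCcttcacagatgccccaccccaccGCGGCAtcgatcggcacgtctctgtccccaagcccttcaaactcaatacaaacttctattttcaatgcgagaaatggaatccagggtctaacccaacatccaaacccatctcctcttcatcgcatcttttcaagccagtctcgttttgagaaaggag
Plagl1, chr10:13090582-13090881, plus strand: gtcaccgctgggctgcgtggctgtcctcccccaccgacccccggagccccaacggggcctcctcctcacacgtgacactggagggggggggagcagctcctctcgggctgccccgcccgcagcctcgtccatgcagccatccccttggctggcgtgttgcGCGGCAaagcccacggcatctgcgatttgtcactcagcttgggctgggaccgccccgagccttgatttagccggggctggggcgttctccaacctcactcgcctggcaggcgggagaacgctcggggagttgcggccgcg
Mest, chr6:30737800-30738099, plus strand: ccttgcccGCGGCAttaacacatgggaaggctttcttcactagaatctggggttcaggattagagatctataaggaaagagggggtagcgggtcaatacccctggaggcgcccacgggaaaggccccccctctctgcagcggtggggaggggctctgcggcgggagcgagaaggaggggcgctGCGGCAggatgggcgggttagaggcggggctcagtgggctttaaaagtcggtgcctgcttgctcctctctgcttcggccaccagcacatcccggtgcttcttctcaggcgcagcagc
Nnat, chr2:157559828-157560127, plus strand: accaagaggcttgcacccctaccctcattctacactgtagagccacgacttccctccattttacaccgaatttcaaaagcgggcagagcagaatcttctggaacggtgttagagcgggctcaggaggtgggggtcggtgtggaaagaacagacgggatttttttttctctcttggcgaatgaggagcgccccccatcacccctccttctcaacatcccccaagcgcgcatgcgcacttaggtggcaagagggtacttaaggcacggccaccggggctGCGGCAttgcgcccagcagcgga
Grb10, chr11:12037371-12037670, minus strand: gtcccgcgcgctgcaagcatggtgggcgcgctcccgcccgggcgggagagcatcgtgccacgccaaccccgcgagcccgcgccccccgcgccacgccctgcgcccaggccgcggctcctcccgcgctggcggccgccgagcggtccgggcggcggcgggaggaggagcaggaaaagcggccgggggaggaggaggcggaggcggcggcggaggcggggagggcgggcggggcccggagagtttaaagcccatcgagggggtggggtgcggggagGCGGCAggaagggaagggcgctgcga
Meg3, chr12:109540746-109541045, plus strand: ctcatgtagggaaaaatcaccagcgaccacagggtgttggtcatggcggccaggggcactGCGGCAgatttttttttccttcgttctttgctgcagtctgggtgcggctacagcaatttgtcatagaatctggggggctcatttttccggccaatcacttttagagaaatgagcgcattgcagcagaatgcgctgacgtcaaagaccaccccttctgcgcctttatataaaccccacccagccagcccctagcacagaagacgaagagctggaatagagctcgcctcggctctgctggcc
The Zdbf2 window holds the letters 3 times and lies at the upstream one of its 2 RefSeq start sites, 72911 bp from the other, and the Mest window holds them 2 times. Nap1l5 also held them 2 times, and Igf2, Mcts2 and Zim1 1 time each; these 4 windows are not shown. A match describes the letters in the window and is not a bound site.

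Of the Igf2-H19 pair, in which the growth factor gene Igf2 is expressed from the paternal and the non-coding RNA gene H19 from the maternal copy, each gene moved on its own course. H19 (ENSMUSG00000000031, chr7:142575529-142578143, minus strand) was measured at 0.368, 0.334 and 0.312 CPM in 2i, 11.5, 11.6 and 13.7 CPM in serum and 3.22, 2.60 and 4.40 CPM in EpiLC. The mESC-2i libraries held 3 or 4 counts each, and no 2 groups overlapped. H19 rose 34.4-fold in serum (log2 fold change 5.11 ± 0.24 SE, adjusted p = 7.0e-08), the largest rise among the tested imprinted genes, and was 9.69-fold higher in EpiLC than in mESC-2i (3.28 ± 0.36, adjusted p = 1.0e-05). Igf2 (ENSMUSG00000048583, chr7:142650766-142666816, minus strand) stood at 99.1, 102 and 103 CPM in 2i, 105, 113 and 122 CPM in serum and 2.68, 4.12 and 4.15 CPM in EpiLC. Both stem cell states were near 100 CPM and all EpiLC libraries were under 5 CPM. The change between serum and 2i was 0.10 ± 0.10 (adjusted p = 0.36), and Igf2 fell by 4.79 on the log2 scale in EpiLC against mESC-2i (SE 0.15, adjusted p = 1.8e-09), 27.7-fold lower. Igf2 exons overlap those of the antisense gene Igf2os. The libraries were made with an unstranded kit, so reads from the shared bases cannot be told apart. The same limit holds below for Meg3 and Gm26906, Mest and Copg2, Gnas and Nespas, and Zrsr1 and Commd1.

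The 3 measured genes of the Kcnq1 domain are maternally expressed and restrain growth or act in the placenta. All 3 were higher in EpiLC than in mESC-2i, and they differed in serum. Cdkn1c (chr7:143458339-143461050, minus strand), which encodes the cell cycle inhibitor p57, had 17.2, 14.1 and 9.82 CPM in 2i, 74.5, 71.9 and 73.4 CPM in serum and 73.0, 71.2 and 70.5 CPM in EpiLC. Its mESC-ser and EpiLC libraries lay at one level and all mESC-2i libraries below it (5.20-fold in serum and 5.22-fold in EpiLC, adjusted p = 1.3e-06 and 4.5e-07). With length and GC corrected, Cdkn1c was called lower in EpiLC than in serum (-0.60, adjusted p = 3.4e-07). Phlda2, a pleckstrin homology protein that limits placental growth, was at 43.5, 55.2 and 38.1 CPM in 2i, 29.7, 26.8 and 25.6 CPM in serum and 86.4, 93.5 and 91.2 CPM in EpiLC, so serum was the lowest group and EpiLC the highest. Its log2 fold changes were -0.79 ± 0.14 in mESC-ser and 0.97 ± 0.13 in EpiLC against mESC-2i (adjusted p = 6.5e-04 and 4.3e-05), and both fell short of the fold threshold after a correction for gene length and GC content (-0.43 and 0.41). Ascl2, a transcription factor of trophoblast, was low, with 2.82, 1.00 and 1.56 CPM in 2i, 3.08, 2.04 and 2.35 CPM in serum and 7.78, 6.94 and 8.17 CPM in EpiLC. Only the EpiLC libraries stood clear of the others (2.13 ± 0.30 against mESC-2i, adjusted p = 6.6e-05). In serum the Ascl2 change was 0.49 ± 0.35 (adjusted p = 0.24), and without replicate 1 of mESC-2i it was 0.91 and called.

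Since Phlda2, Ascl2 and several other members are genes of the placenta, markers of that lineage are given beside them. The summed level of 9 trophectoderm markers was 135 to 157 CPM in 2i, 245 to 271 in serum and 83.2 to 87.1 in EpiLC, with 6, 7 and 5 of them detected in all 3 libraries of the group. In serum the sum was carried by the keratin genes Krt8 (106, 101 and 113 CPM, against 36.2, 40.9 and 25.9 in 2i) and Krt18 (99.5, 92.3 and 96.1 against 9.46, 13.1 and 10.7). The transcription factors Cdx2 (-2.70), Eomes (-0.90) and Tfap2c (-0.96) were called lower in serum than in 2i. Of 7 tested trophectoderm markers 4 were higher and 3 lower there, beside 56.2% of all tested genes called. The 3 lower were these factors. The 4 higher were not the keratin genes alone and included Gata3 or Hand1, so transcription factors of the list went both ways. Elf5 was at or under 3 counts in every library of all 3 states. The 10 primitive endoderm markers summed to 86.0 to 98.9, 174 to 213 and 135 to 142 CPM in 2i, serum and EpiLC, and most of each sum was Lamb1, a laminin gene that other cells express too (74.3, 65.0 and 74.5 CPM in 2i, 139.9, 145 and 178 CPM in serum and 132, 125 and 127 CPM in EpiLC). In serum against 2i, 5 of 7 tested primitive endoderm markers were higher and 2 lower, with a median of 0.67. With length and GC corrected, 3 were higher and 1 lower, with a median of 0.39. In EpiLC against 2i, 1 of 5 tested primitive endoderm markers was higher and 3 were lower, with a median of -1.01, and Gata4 was -1.99. Of all tested genes, 56.2% and 69.8% were called in these comparisons. Afp was at 0 in every serum library. The part of such cells in the levels of the imprinted genes was not tested.

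Igf2r, which encodes the receptor that carries IGF2 to lysosomes and is expressed from the maternal copy, fell in EpiLC only. It was measured at 107, 105 and 135 CPM in 2i, 127, 127 and 145 CPM in serum and 28.6, 25.9 and 29.3 CPM in EpiLC (chr17:12682406-12769664, minus strand). The stem cell states overlapped (0.15 ± 0.12, adjusted p = 0.32), and EpiLC lay 4.20-fold below mESC-2i (adjusted p = 1.3e-07) and 4.502-fold below mESC-ser. Airn, the paternally expressed non-coding RNA that starts inside Igf2r on the other strand and silences it, passed the filter in no comparison. The Airn counts were 1, 1 and 4 in 2i, 0, 5 and 4 in serum and 0, 0 and 1 in EpiLC, which is too few to tell the groups apart (ratio of mESC-2i to EpiLC 4.48, 95% counting interval 0.54 to 206).

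The 3 genes of the Peg3 cluster were all higher in serum than in both other states. Peg3 (chr7:6703892-6730431, minus strand), a paternally expressed zinc finger gene with roles in growth and maternal behaviour, had 29.7, 29.5 and 39.5 CPM in 2i, 126, 125 and 141 CPM in serum and 42.0, 40.6 and 37.6 CPM in EpiLC. Only serum stood apart, 3.81-fold above mESC-2i (1.93 ± 0.13, adjusted p = 8.4e-07). The difference of EpiLC from mESC-2i was 0.26 ± 0.13 (adjusted p = 0.091), and with length and GC corrected it became 1.11 and was called, while the fall from mESC-ser to EpiLC shrank from -1.62 to -0.31. Usp29, a ubiquitin protease gene whose RefSeq start site lies 164 bp from that of Peg3 on the other strand, held 6, 4 and 7 counts in mESC-2i, 36, 32 and 30 in mESC-ser and 0 in every EpiLC library. The windows of the 2 genes share 263 of 300 bases. Usp29 was 4.18-fold higher in serum than in 2i (adjusted p = 5.0e-04). With the summed EpiLC count set to 3, EpiLC was at least 18.5-fold lower than serum and at least 4.23-fold lower than 2i. Zim1, the maternally expressed zinc finger gene of the cluster, had 2, 3 and 3 counts in 2i, 38, 22 and 37 in serum and 0, 2 and 0 in EpiLC. The serum libraries exceeded those of mESC-2i by a ratio of 9.19 (95% counting interval 4.48 to 21.9) and those of EpiLC by 27.5 (7.40 to 230.0). The EpiLC level rests on replicate 2, without which that group had 0 counts. The 3 genes followed each other over these 9 libraries (Pearson r of log2 CPM 0.755 to 0.918, a description).

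In the Dlk1-Meg3 cluster, the paternally expressed coding gene and the maternally expressed long RNAs took different courses. Dlk1 (chr12:109452823-109463336, plus strand), a transmembrane protein related to the Notch ligands, was measured at 0.368, 1.25 and 0.702 CPM in 2i, 4.20, 5.68 and 5.68 CPM in serum and 7.11, 6.83 and 7.41 CPM in EpiLC. No groups overlapped, and Dlk1 was 6.09-fold higher in serum (2.61 ± 0.32, adjusted p = 4.6e-05) and 8.54-fold higher in EpiLC (3.09 ± 0.30, adjusted p = 3.7e-06) than in mESC-2i. The smaller step from serum to EpiLC (0.54 ± 0.17, adjusted p = 0.0074) was 0.40 and not called without replicate 1 of mESC-ser, and it was not called under total-count scaling (0.199), either other filter (0.45 and 0.47) or a joint fit (0.47).

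Meg3, Rian and Mirg are long non-coding RNAs, of which Rian carries small nucleolar RNAs and Mirg microRNAs. Meg3 (chr12:109541001-109571726, plus strand) stood at 234, 194 and 742 CPM in 2i, 162, 179 and 234 CPM in serum and 479, 507 and 551 CPM in EpiLC. The first 2 mESC-2i libraries were close to serum and the third exceeded every EpiLC library, so mESC-2i overlapped both other groups. Meg3 was called lower in serum (-1.08 ± 0.42, adjusted p = 0.041), and without mESC-2i replicate 3 the change was -0.22 and not called. The call was also lost without any 1 mESC-ser library (-0.94 to -1.24). In EpiLC against mESC-2i the change was 0.37 ± 0.40 (adjusted p = 0.41), and without that mESC-2i library it was 1.25 and called. It was also called with all libraries kept and length and GC corrected (1.44, adjusted p = 9.5e-04). Against mESC-ser, whose libraries did not overlap with EpiLC, Meg3 was 2.83-fold higher in EpiLC (1.503 ± 0.11, adjusted p = 2.1e-09).

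Rian showed the same library apart, with 214, 191 and 294 CPM in 2i, 159, 169 and 156 CPM in serum and 169, 157 and 165 CPM in EpiLC. The Rian values of mESC-ser and EpiLC overlapped, and both lay below mESC-2i (-0.59 and -0.53, adjusted p = 0.0058 and 0.0065), calls that were lost without mESC-2i replicate 3 (-0.38 and -0.32) and, for EpiLC, without EpiLC replicate 2 (-0.49). The length and GC correction turned the difference of EpiLC from 2i to 0.46, not called, and that from serum to 1.99, which was called (adjusted p = 1.8e-13). Mirg held 19.8, 18.8 and 40.9 CPM in 2i, 13.7, 15.0 and 14.3 CPM in serum and 97.7, 96.7 and 99.5 CPM in EpiLC, and its EpiLC libraries were above all others by a wide margin. It rose 3.61-fold in EpiLC against mESC-2i (1.85 ± 0.25, adjusted p = 4.4e-05) and 7.25-fold against mESC-ser (2.86 ± 0.09, adjusted p = 6.9e-14). The lower Mirg level in serum than in 2i (-0.96) was -0.48 and not called without mESC-2i replicate 3. Replicate 3 of mESC-2i was thus high in Meg3, Rian and Mirg as well as in Malat1 and Neat1. Meg3 and Malat1 were highest in replicate 3 of mESC-ser and of EpiLC too. Rian was so in neither group, Mirg in EpiLC only and Neat1 in mESC-ser only. A common origin was not tested. Meg3 exons overlap the annotated gene Gm26906 on the other strand.

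**Figure D3:**
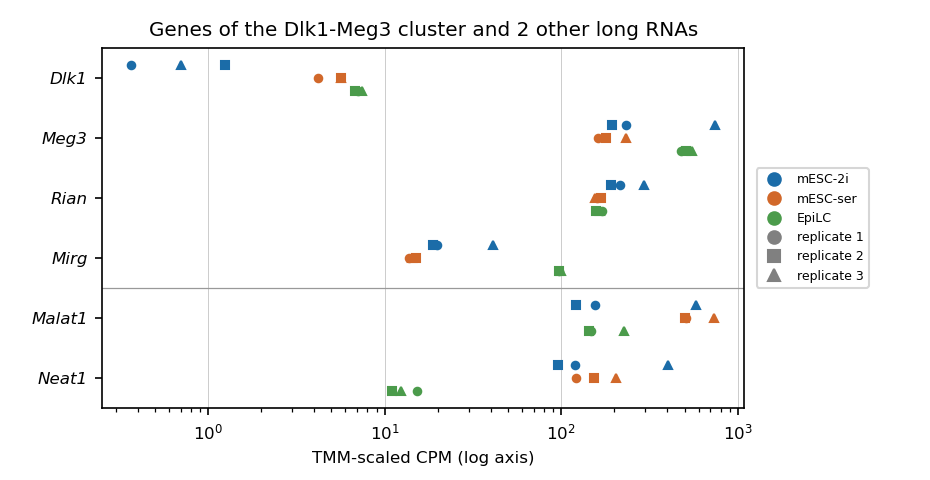
TMM-scaled CPM on a log axis of the 4 genes of the Dlk1-Meg3 cluster and of Malat1 and Neat1 in each library. Replicate 3 of mESC-2i (blue triangle) lies to the right of the other 2 blue symbols for Meg3, Rian, Mirg, Malat1 and Neat1 but not for Dlk1, and Mirg is near 98 CPM in all 3 EpiLC libraries.

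The genes of the Snrpn-Ube3a cluster, the region of the Prader-Willi and Angelman syndromes, did not move as a block. Peg12 (chr7:62461871-62464510, minus strand), a paternally expressed relative of the FRAT inhibitors of GSK3, was found at 17.8, 18.6 and 15.5 CPM in 2i, 1.68, 1.36 and 1.26 CPM in serum and 1.34, 1.63 and 1.38 CPM in EpiLC. The mESC-2i libraries alone were high, and Peg12 was 12.5-fold lower in serum (-3.64 ± 0.18, adjusted p = 9.5e-08) and 11.9-fold lower in EpiLC (-3.57 ± 0.19, adjusted p = 5.6e-08). Ndn, which encodes the MAGE family protein necdin, was likewise highest in 2i, with 21.7, 27.1 and 17.4 CPM in 2i, 12.2, 12.3 and 11.4 CPM in serum and 9.93, 9.87 and 10.1 CPM in EpiLC (-0.94 and -1.16, adjusted p = 5.4e-04 and 9.4e-05). Mkrn3, a ring finger gene known for its part in the timing of puberty, had 7.86, 9.84 and 8.58 CPM in 2i, 5.11, 6.45 and 4.59 CPM in serum and 2.95, 3.04 and 2.89 CPM in EpiLC and so descended from 2i through serum to EpiLC without overlap. Its step from 2i to serum (-0.78 ± 0.18, adjusted p = 0.0027) was -0.46 and not called after the length and GC correction.

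Magel2, the other MAGE family gene of this region, went the opposite way to Ndn between 2i and serum. Its levels were 1.11, 0.667 and 2.10 CPM in 2i, 5.88, 6.11 and 7.52 CPM in serum and 4.16, 4.01 and 4.02 CPM in EpiLC, with the mESC-2i libraries lowest (2.24 ± 0.32 in serum, adjusted p = 1.3e-04, and 1.59 ± 0.35 in EpiLC, adjusted p = 0.0015). Without mESC-2i replicate 3, the highest of its group, these differences were 2.88 and 2.23. The lower level in EpiLC than in serum (-0.60) was -0.47 and not called without mESC-ser replicate 3. Ube3a, a ubiquitin ligase that is expressed from the maternal copy in neurons and from both copies in most other cells, was measured at 27.4, 25.8 and 26.0 CPM in 2i, 128, 129 and 132 CPM in serum and 26.4, 19.5 and 26.6 CPM in EpiLC. It was 4.72-fold higher in serum (2.24 ± 0.10, adjusted p = 5.1e-08), and EpiLC overlapped with mESC-2i (-0.15 ± 0.13, adjusted p = 0.33). Ube3a has 20626 bp of exonic sequence, the longest of the members, and the length and GC correction moved its serum rise to 1.17, its difference between EpiLC and mESC-2i to 0.88 and its fall from serum to EpiLC from -2.34 to -0.25.

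Peg10 and Sgce are both paternally expressed and start 99 bp apart on opposite strands in the GENCODE annotation, yet they differed in direction in serum. Peg10 (chr6:4747306-4760517, plus strand), a gene derived from a retrotransposon and needed for the placenta, was measured at 78.1, 70.0 and 84.0 CPM in 2i, 1133, 1107 and 1222 CPM in serum and 53.7, 52.9 and 62.6 CPM in EpiLC. It rose 14.3-fold in serum (3.84 ± 0.12, adjusted p = 1.2e-08) and was 19.3-fold lower in EpiLC than in serum (adjusted p = 6.5e-15). Between EpiLC and mESC-2i the Peg10 change of -0.48 ± 0.11 (adjusted p = 0.0021) fell just short of the fold threshold, and it passed without mESC-2i replicate 2 (-0.51) or EpiLC replicate 3 (-0.55). Sgce (chr6:4674350-4747207, minus strand), which encodes epsilon-sarcoglycan, had 10.3, 10.8 and 7.64 CPM in 2i, 4.27, 3.39 and 3.96 CPM in serum and 2.82, 3.25 and 2.14 CPM in EpiLC. Here mESC-2i was the highest group, and Sgce was 2.55-fold lower in serum (-1.35 ± 0.19, adjusted p = 1.1e-04) and 3.501-fold lower in EpiLC (-1.81 ± 0.22, adjusted p = 2.7e-05). Per kilobase of exonic sequence, Peg10 stood at 173 ± 9.05 RPKM in serum and Sgce at 0.365 ± 0.0419 RPKM.

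Grb10 and Mest, each alone in its cluster here, rose in serum. Grb10 (chr11:11930508-12038683, minus strand), an adaptor protein that restrains insulin and growth factor signalling, is expressed from the maternal copy in most tissues and held 39.3, 34.6 and 39.4 CPM in 2i, 290.3, 272 and 295 CPM in serum and 83.6, 85.7 and 85.6 CPM in EpiLC. All 3 groups were apart, with a rise of 7.27-fold in serum (2.86 ± 0.11, adjusted p = 2.7e-08) and of 2.22-fold in EpiLC (1.15 ± 0.10, adjusted p = 1.4e-06) over mESC-2i. Mest (chr6:30723547-30748465, plus strand), a paternally expressed gene of the hydrolase family, was at 41.6, 39.8 and 36.2 CPM in 2i, 187, 178 and 183 CPM in serum and 16.8, 16.6 and 14.4 CPM in EpiLC. Serum was again highest (4.49-fold, 2.17 ± 0.10, adjusted p = 7.6e-08), but EpiLC lay below mESC-2i (-1.31 ± 0.12, adjusted p = 2.3e-06) and 10.8-fold below serum. The exons of Mest overlap those of Copg2 on the other strand. Copg2, which is itself imprinted, moved the other way in serum, with 70.7, 72.7 and 62.3 CPM in 2i, 42.8, 40.9 and 40.6 CPM in serum and 34.2, 32.7 and 27.9 CPM in EpiLC (-0.78 ± 0.10, adjusted p = 8.3e-05).

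Gnas, the gene of the stimulatory G protein alpha subunit, has transcripts from the maternal, the paternal and both copies, which 1 count per gene does not separate. Its levels were 172, 189 and 159.5 CPM in 2i, 212, 210.2 and 215 CPM in serum and 309, 308 and 325 CPM in EpiLC (chr2:174284320-174346744, plus strand), with all EpiLC libraries above the others. The rise in EpiLC was 1.78-fold over mESC-2i (0.84 ± 0.09, adjusted p = 1.2e-05), though under total-count scaling the differences of EpiLC from 2i and from serum were 0.498 and 0.31 and not called, and the serum difference was 0.23 ± 0.10 (adjusted p = 0.055). Nespas, an antisense RNA that shares exonic bases with Gnas, was low at 2.58, 1.00 and 2.65 CPM in 2i, 3.57, 4.16 and 3.04 CPM in serum and 4.16, 2.39 and 2.89 CPM in EpiLC and was called in none of the comparisons (1.10 and called in serum with length and GC corrected).

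Of the 4 paternally expressed genes that lie inside a host gene, 3 were measured well and each kept its own course. Nnat (chr2:157560078-157562522, plus strand), which encodes the membrane protein neuronatin and lies in Blcap, had 40.8, 50.4 and 37.8 CPM in 2i, 12.2, 10.9 and 10.97 CPM in serum and 12.8, 13.99 and 12.6 CPM in EpiLC. It was lower in serum (3.94-fold, -1.98 ± 0.14, adjusted p = 8.7e-07) and in EpiLC (3.32-fold, -1.73 ± 0.14, adjusted p = 8.9e-07). Its host Blcap was at 32.6 ± 2.17 CPM, 31.3 ± 1.71 CPM and 21.1 ± 2.17 CPM in mESC-2i, mESC-ser and EpiLC (SD, n = 3), with a difference of -0.11 ± 0.11 in serum (adjusted p = 0.36).

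Mcts2, a retrocopy of Mcts1 inside H13, held 23.3, 22.6 and 18.01 CPM in 2i, 23.4, 22.3 and 19.1 CPM in serum and 55.6, 51.0 and 51.5 CPM in EpiLC, with EpiLC apart (1.29 ± 0.12 against mESC-2i, adjusted p = 3.2e-06). Its parent gene Mcts1 on another chromosome rose in EpiLC as well (0.98 ± 0.16, adjusted p = 2.2e-04), and reads that fit both copies make the split between them uncertain. The host H13 differed by 0.44 ± 0.10 and was not called, though it was 0.98 and called with length and GC corrected. Zrsr1, a retrocopy of the splicing factor gene Zrsr2, was at 23.2, 26.2 and 29.3 CPM in 2i, 24.3, 23.6 and 24.8 CPM in serum and 12.3, 9.66 and 10.8 CPM in EpiLC, lower in EpiLC than in mESC-2i (-1.29 ± 0.14, adjusted p = 1.0e-05). Zrsr2 was not called there (0.16 ± 0.11, adjusted p = 0.22), and with the correction it was 0.77 and called. The host Commd1, whose exons overlap Zrsr1 on the other strand, moved the opposite way (1.18 ± 0.14, adjusted p = 2.1e-05). Nap1l5 inside Herc3 had 3 to 17 counts in each library, passed the filter only in EpiLC against mESC-2i and was not called there (0.81 ± 0.43, adjusted p = 0.11), though it was 1.34 and called without mESC-2i replicate 2.

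The remaining 4 members are paternally expressed genes without other listed members near them, and they include the largest fall of a gene that had counts in all 9 libraries. Plagl1 (chr10:13060504-13131694, plus strand), a zinc finger transcription factor that regulates other imprinted genes, was measured at 99.7, 69.5 and 131 CPM in 2i, 6.58, 5.43 and 7.87 CPM in serum and 1.07, 0.542 and 1.13 CPM in EpiLC. No groups overlapped. Plagl1 was 15.6-fold lower in serum (-3.96 ± 0.24, adjusted p = 4.1e-07) and 112-fold lower in EpiLC (-6.80 ± 0.33, adjusted p = 3.2e-08) than in mESC-2i, where EpiLC held 5 to 9 counts per library. Zdbf2 (chr1:63273265-63314576, plus strand), a zinc finger gene known for an imprint that is set again in the embryo, had 50.7, 37.7 and 57.9 CPM in 2i, 280.5, 278 and 289 CPM in serum and 29.0, 24.1 and 32.5 CPM in EpiLC. Zdbf2 was 5.56-fold higher in serum than in 2i (2.47 ± 0.15, adjusted p = 4.2e-07) and 9.36-fold lower in EpiLC than in serum (-3.23 ± 0.10, adjusted p = 8.4e-14). The lower level of EpiLC than of mESC-2i (-0.80 ± 0.17) was 0.03 after the length and GC correction.

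Slc38a4 (chr15:96994820-97055956, minus strand), an amino acid transporter whose imprint in the placenta rests on a histone mark, followed Zdbf2 with 102, 106 and 103 CPM in 2i, 375, 373 and 368 CPM in serum and 90.9, 79.2 and 87.8 CPM in EpiLC. Its rise in serum was 3.45-fold (1.79 ± 0.09, adjusted p = 1.3e-07), and the EpiLC difference from mESC-2i of -0.29 ± 0.09 did not reach the fold threshold. Impact, an inhibitor of the translation control kinase GCN2, was at 153, 140.3 and 142 CPM in 2i, 187, 179 and 183 CPM in serum and 79.1, 76.9 and 78.4 CPM in EpiLC. Impact was below both stem cell states in EpiLC (-0.91 and -1.14, adjusted p = 3.7e-06 and 4.5e-10). The difference from 2i was -0.44 and not called with length and GC corrected. Serum differed from 2i by 0.28 ± 0.09 (adjusted p = 0.024), under the fold threshold.

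Members were also split by the parental copy each is known for, while the copy read in these cells was not measured. Ube3a was counted as maternal, though most cells other than neurons express it from both copies. The 11 measured members of the maternal copy had 5 higher and 4 lower between serum and 2i. They had 6 higher and 2 lower of 10 tested between EpiLC and 2i, and 4 higher and 5 lower between EpiLC and serum. Of the 20 members of the paternal copy, 18 were tested in each comparison, with 8 higher and 6 lower, 3 higher and 11 lower, and 2 higher and 12 lower. The shares called were 81.8%, 80.0% and 81.8% for the maternal and 77.8% each time for the paternal copy. Over all tested genes they were 56.2%, 69.8% and 73.3%. Between EpiLC and 2i, 32.0% of all tested genes were called higher and 37.8% lower. The median log2 fold change between EpiLC and 2i was 1.06 for the maternal and -1.04 for the paternal copy, and the difference was not tested. With length and GC corrected, these medians were 1.56 and -0.65. The maternal group included Meg3, Rian and Mirg, which lie in 1 cluster, and Cdkn1c, Phlda2 and Ascl2 of the Kcnq1 domain. Genes of a cluster are not independent of each other. Cdkn1c, Phlda2 and Ascl2 were among the 6 maternal genes higher in EpiLC than in 2i, with H19, Grb10 and Mirg.

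Per kilobase of exonic sequence, the median level of the 32 genes was 5.91 RPKM in 2i, 6.24 in serum and 2.85 in EpiLC. The top gene was Phlda2 in mESC-2i (40.7 ± 7.79 RPKM) and in EpiLC (80.6 ± 3.22 RPKM), and Peg10 in mESC-ser. In mESC-2i, Phlda2 was followed by Impact (28.3 ± 1.33 RPKM), Slc38a4 (24.3 ± 0.512 RPKM), Nnat (23.5 ± 3.61 RPKM) and Mcts2 (23.4 ± 3.16 RPKM), of which the last 3 lay within an SD of each other. In mESC-ser, Slc38a4 (87.3 ± 0.870 RPKM) and Mest (46.3 ± 1.16 RPKM) came next to Peg10. In EpiLC, Phlda2 was followed by Mcts2 (57.8 ± 2.75 RPKM) and Cdkn1c (35.1 ± 0.643 RPKM). Between 23 and 24 of the genes exceeded 1 RPKM in each state.

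The regulators of imprinting were compared because imprints depend on the machinery that maintains methylation through division. Of 29 listed genes, 20 were higher and 0 lower in serum than in 2i by edgeR at the threshold given above (0 also with DESeq2, and 1 lower under total-count scaling or without mESC-ser replicate 3), 8 were higher and 14 lower in EpiLC than in 2i, and 4 were higher and 20 lower in EpiLC than in serum. The backgrounds were the same as for the members (56.2%, 69.8% and 73.3% called), and the median log2 fold changes of the list were 0.89, -0.46 and -1.26. With length and GC corrected, EpiLC had 11 regulators higher and 12 lower than 2i, with a median of 0.29, and 7 higher and 15 lower than serum, with a median of -0.60. Without a fold threshold 1 regulator was lower in serum, and 1 was at an unadjusted p under 0.05. This was Uhrf1, the factor that brings DNMT1 to replicated DNA, with 430.4, 439.7 and 419.6 CPM in 2i, 311, 302 and 361 CPM in serum and 454, 446 and 439.6 CPM in EpiLC (-0.46 ± 0.10, adjusted p = 0.0026). The enzymes that set new methylation were lowest in 2i. Dnmt3a was at 12.0, 10.8 and 13.4 CPM in 2i, 178, 171 and 199.7 CPM in serum and 529.9, 526 and 538 CPM in EpiLC, a rise of 14.5-fold in serum and 43.3-fold in EpiLC (adjusted p = 1.4e-08 and 4.1e-10). Dnmt3b took the same order with 64.8, 56.9 and 64.0 CPM in 2i, 525, 508 and 601 CPM in serum and 1168, 1113 and 1134 CPM in EpiLC. Dnmt3l, their partner without catalytic activity, peaked in serum with 28.9, 31.1 and 28.8 CPM in 2i, 391, 392 and 406 CPM in serum and 186, 190.1 and 184 CPM in EpiLC.

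Tet1, which oxidises methylated cytosine, was at 179, 151 and 227 CPM in 2i, 1375, 1387 and 1557 CPM in serum and 63.4, 56.6 and 64.8 CPM in EpiLC, and Tet2 at 48.6, 40.1 and 88.5 CPM in 2i, 221, 232 and 257 CPM in serum and 2.15, 1.63 and 1.13 CPM in EpiLC. Both were highest in serum and lowest in EpiLC, where Tet2 fell 136-fold below serum (-7.09 ± 0.15, adjusted p = 4.7e-15). The maintenance methyltransferase Dnmt1 was at 281, 272 and 334 CPM in 2i, 419, 402 and 506 CPM in serum and 145, 140.2 and 136 CPM in EpiLC, lower in EpiLC than in either stem cell state (-1.09 and -1.57). The RNAs of the zinc finger proteins that bind methylated imprinting control regions were lower in EpiLC too. Zfp57 held 255, 225 and 428 CPM in 2i, 364, 368 and 400.4 CPM in serum and 85.5, 90.9 and 89.5 CPM in EpiLC (-1.79 ± 0.21 against mESC-2i, adjusted p = 1.7e-05), and Zfp445 held 15.7, 11.8 and 26.4 CPM in 2i, 73.3, 70.1 and 77.6 CPM in serum and 1.48, 0.976 and 1.76 CPM in EpiLC (-3.71 ± 0.37, adjusted p = 5.0e-06). Their corepressor Trim28 did not follow, with 1138, 1122 and 1149.5 CPM in 2i, 2355, 2239 and 2493 CPM in serum and 1830.1, 1869.7 and 1929 CPM in EpiLC (0.70 ± 0.10, adjusted p = 5.7e-05), whereas Setdb1, the H3K9 methyltransferase of the same complex, did (-1.31 ± 0.13, adjusted p = 3.9e-06). Of the Polycomb subunits, Suz12 (-2.26) and Eed (-0.86) were lower in EpiLC than in mESC-2i and Ezh2 was not called (-0.14 ± 0.09, adjusted p = 0.16). These changes of single regulators are given without the length and GC correction. In the list of regulators it removed 3 calls and added 4 in EpiLC against 2i. Against serum it removed 4 and added 2.

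**Figure D4:**
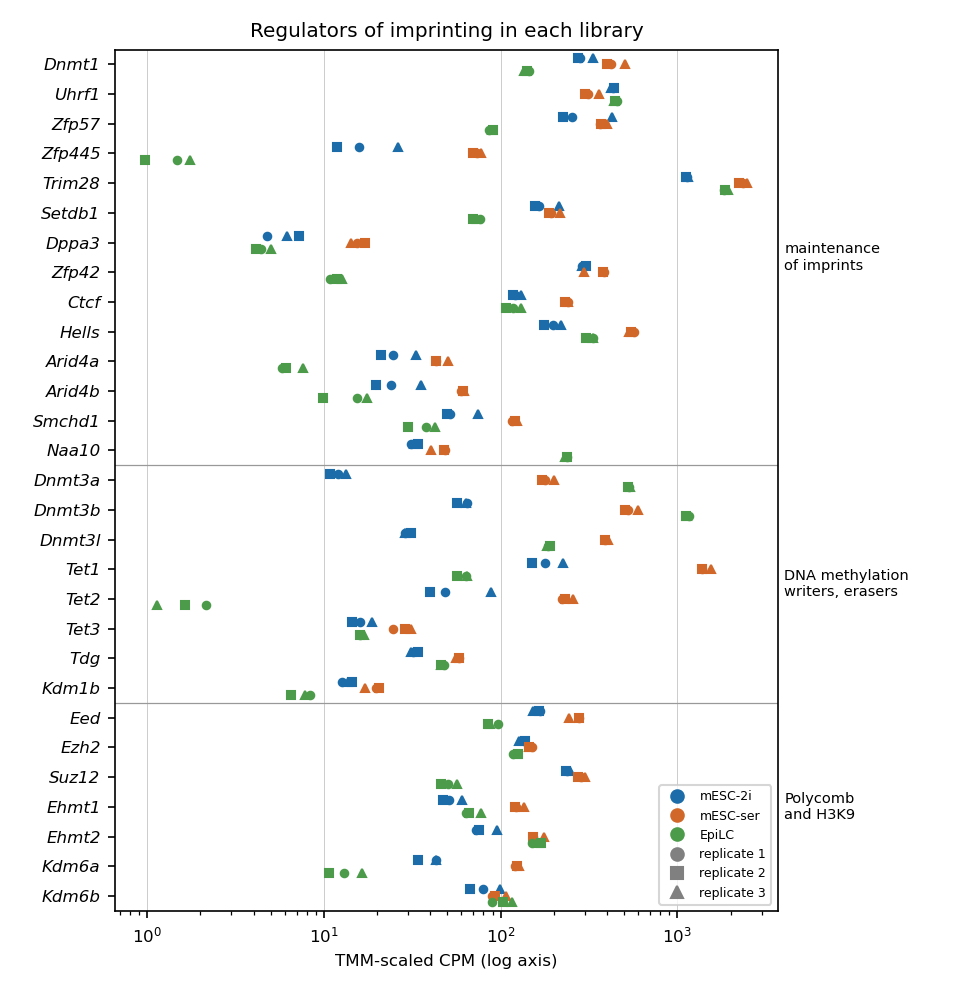
TMM-scaled CPM on a log axis for 29 regulators of imprinting in each library. Dnmt3a and Dnmt3b lie lowest in mESC-2i and highest in EpiLC, Tet1 and Tet2 are highest in mESC-ser, and Zfp57 and Zfp445 are lowest in EpiLC.

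Of 52 further imprinted genes listed for comparison, 47 had a row. Serum had 10 of 34 tested genes higher and 14 lower than 2i, EpiLC had 7 of 35 higher and 18 lower than 2i, and 9 of 32 higher and 13 lower than serum. That is 70.6%, 71.4% and 68.8% of the list called, beside 56.2%, 69.8% and 73.3% of all tested genes. Among those with at least 50 counts in the higher group, the largest rises in serum were those of Adam23 (2.30), Sfmbt2 (2.30) and Ppp1r9a (2.26), and the largest falls those of Qpct (-3.12), Slc22a18 (-3.10) and Pon3 (-1.73). Sfmbt2, a Polycomb-related gene that like Slc38a4 is imprinted through a histone mark, was at 13.1, 11.6 and 20.5 CPM in 2i, 74.8, 74.9 and 83.4 CPM in serum and 7.92, 5.86 and 9.17 CPM in EpiLC. Between EpiLC and 2i, Dcn (4.08), Gatm (2.91) and Commd1 (1.18) rose the most and Cobl (-4.28), Qpct (-4.28) and Ampd3 (-2.54) fell the most. Between EpiLC and serum the same rule named Dcn (5.70), Dhcr7 (2.201) and Commd1 (2.13) as higher and Cobl (-4.67), Sfmbt2 (-3.27) and Jade1 (-3.07) as lower. All of these values are log2 fold changes of called genes.

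Protein-coding neighbours that start within 500 kb of a member and are in no imprinted list gave 30 higher and 33 lower of 95 tested between serum and 2i, 30 and 34 of 93 between EpiLC and 2i, and 30 and 28 of 94 between EpiLC and serum. The shares called were 66.3%, 68.8% and 61.7%, beside 56.2%, 69.8% and 73.3% of all tested genes. Their medians were 0.0032, 0.08 and 0.07, beside 0.26, -0.29 and -0.91 for the imprinted genes.

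Genes outside the list whose log2 CPM followed Meg3, H19 or Dlk1 most closely over the 9 libraries were ranked by Pearson r among 13111 genes. They were Rab24 (r = 0.974), Ppfia4 (0.973) and Slc25a37 (0.971) for Meg3, Kcnj3 (0.998), Gtpbp4 (0.996) and Psme3 (0.995) for H19, and Hs6st2 (0.990), Snai3 (0.989) and Kndc1 (0.986) for Dlk1. The libraries share culture state and depth, so these r values are descriptions.

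Fold changes were correlated with gene length in all 3 comparisons. Over all protein-coding genes, the Spearman correlation of exonic length with the fold change of serum over 2i was 0.280, that of EpiLC over 2i -0.300 and that of EpiLC over serum -0.498, a description over genes that are not independent. The corrected fold changes gave 0.040, -0.089 and -0.127. The tested members had a longer median than coding genes in general (5129 to 5690 bp against 4390 to 4430 bp). With the correction, the imprinted genes were 13 higher and 8 lower in the first comparison, 12 and 10 in the second and 9 and 16 in the third, with medians of 0.22, 0.41 and -0.60, so that the median in EpiLC against mESC-2i changed sign. Over all tested genes the calls that were higher went from 45.9% to 56.0% in EpiLC against mESC-2i, and the median of all genes moved from -0.11 to 0.18. The part of length in the differences was not tested further. The changes of H19, Plagl1, Igf2, Peg12 and Peg10 kept their direction and call under the correction wherever they were called without it.

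**Figure D5:**
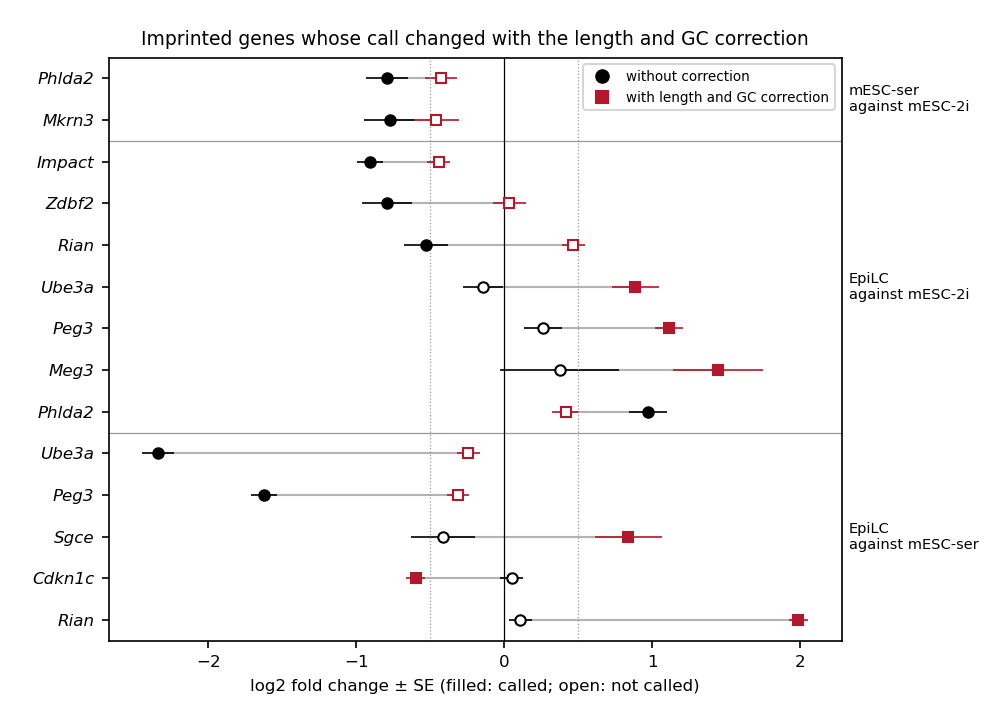
Log2 fold change with its SE without (circles) and with (squares) the correction for gene length and GC content, for the 14 member and comparison pairs whose call changed. Filled symbols are called, and the dotted lines mark the fold threshold of 0.5. Ube3a and Peg3 move from below -1.5 to near 0 in EpiLC against mESC-ser, and Rian moves to about 2.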

How the data were processed

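RNA was measured by poly-A RNA-seq with an unstranded kit and 50 bp single-end reads. The authors trimmed reads with TrimGalore 0.6.6, aligned them to mm10 with HISAT2 2.2.1, counted them per gene with featureCounts of Subread 2.0.1 and deposited the raw counts, 1 column per library. The strand and multiple-mapping settings are not given in the sources used here. The imprinted genes, gene lists and markers were chosen with earlier results of these data known. They were named by fixed lists, and other imprinted genes by the 3 largest called rises and falls per comparison among genes with at least 50 counts in the higher group.

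Each pair of groups was fitted alone with edgeR 4.0.16 (R 4.3.3), with filterByExpr, TMM scaling and the quasi-likelihood F-test with Benjamini-Hochberg adjustment. Calls needed an adjusted p under 0.05 together with a log2 fold change past 0.5 in either direction, and that fold limit was taken from the study's methods. All ± values beside log2 fold changes are SE and those beside RPKM are SD (n = 3). RPKM used exonic lengths of GENCODE M21, the source of the gene positions (GRCm38), which matched 36429 of 38293 gene IDs (95.1%) and left 0.596% to 0.827% of counts unmatched. The length and GC correction added offsets from natural splines (5 degrees of freedom) per library. Counting intervals of 95% cover counting error only. Deviations from the group mean had r = 0.127 to 0.340 between same-numbered libraries of mESC-2i and mESC-ser. Between differently numbered ones r was -0.276 to 0.144. The ranges of this comparison overlap, so whether the numbers pair the libraries is not settled. The blocked fit changed no call of an imprinted gene there. The alternatives were other scalings, filters, thresholds, DESeq2 1.42.0, a joint fit, a replicate block and leaving out each library. Promoter windows came from RefSeq. Kcnq1ot1 and Snrpn were not analysed here.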

Additional observations from a re-analysis of the deposited data

How the results depend on the processing

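Leaving out each library in turn gave 20 to 24, 22 to 25 and 24 to 25 imprinted genes called in serum against 2i, EpiLC against 2i and EpiLC against serum, 19 to 22, 20 to 23 and 23 to 24 regulators, and 23 to 27, 24 to 26 and 22 to 23 other imprinted genes. With at least 10 counts in every library, 16 other imprinted genes were called in EpiLC against 2i instead of 25, since fewer were tested. Over an absolute log2 fold change of 1, 11 regulators were called in serum and 14 in EpiLC against 2i. No other total of calls moved by over 1.5 times. Within the totals, regulators higher in EpiLC went from 4 to 7 against serum with length and GC corrected and from 8 to 5 against 2i under total counts, other imprinted genes higher in EpiLC than in 2i went from 7 to 11 with the correction or no filter, and imprinted genes higher in serum than in 2i from 13 to 8 with at least 10 counts in every library.

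Among the log2 fold changes that changed sign, Zdbf2 (-0.80) and Rian (-0.53) in EpiLC against 2i were called before the length and GC correction. The difference of Cdkn1c between EpiLC and serum was -0.022 with at least 10 counts, -0.019 with all 9 libraries in one fit and -0.035 with no filter, and Mcts2 in serum against 2i was 0.023 with at least 10 counts and -0.14 to 0.063 with a library left out. Scaled by total counts, EpiLC against serum gave -0.29 for Cdkn1c, -0.043 for Nnat, -0.22 for Peg12 and -0.23 for Rian, and EpiLC against 2i gave -0.079 for Peg3. That scaling moved the median of all genes in these comparisons to -0.41 and -0.45, and the share of calls that were higher to 37.4% and 33.7%, against 48.4% and 45.9%. With length and GC corrected, that share was 56.1% and 56.0%. The correction gave -0.60 for Cdkn1c, 0.10 for Ndn, -0.41 for Nnat, -0.34 for Peg12 and 0.84 for Sgce in EpiLC against serum, 0.11 for Peg10, 0.46 for Rian, 0.095 for Slc38a4, 0.88 for Ube3a and 0.033 for Zdbf2 in EpiLC against 2i, and -0.092 for Gnas and 0.22 for Mcts2 in serum against 2i. With the correction and the replicate block together, these 12 values were -0.60, 0.10, -0.41, -0.35, 0.83, 0.11, 0.46, 0.093, 0.90, 0.036, -0.075 and 0.21. The cause was not tested.

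The replicate block left 23 imprinted genes called in serum against 2i. Same-numbered libraries of EpiLC and 2i had r = 0.022 to 0.109, and differently numbered ones -0.114 to 0.010. For EpiLC and serum these were 0.017 to 0.034 and -0.031 to 0.016. In both comparisons every same-numbered r lay above the differently numbered ones. All of these r are small, and what the numbers stand for is not stated. With the block, 24 imprinted genes were called in each of these comparisons, with Meg3 added in EpiLC against 2i (0.65, adjusted p = 0.046 by edgeR). Meg3 in serum was not called with DESeq2 (-1.05), nor with at least 10 counts in every library (-1.03). Totals of 7187576 to 16829549 counts leave Airn, Nap1l5, Usp29 and Zim1 at or near the counting floor in at least 1 state.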
